A study of Helicoverpa armigera with 12 samples.

Results

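The lipase contigs of the cotton bollworm *Helicoverpa armigera* were taken from an assembled transcriptome by their protein description. A contig, an assembled transcript sequence, was kept where the description of its best protein match, without the species name, held the word lipase and did not hold phospholipase. This gave 145 of 99711 contigs, in 96 of 73709 unigenes, a unigene being a cluster of contigs taken as 1 gene. The 45 contigs described as phospholipases were left out. Each contig was judged by its own description, also within a unigene. Of the unigenes, 24 held more than 1 member and together 73 members, so neighbouring members often share sequence and are not separate observations.

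RNA was sequenced from pools of whole insects reared at 1 temperature and day length on artificial diet. The 1st instar larvae, collected 3 days after hatching, were 4 pools of 30, the 5th instar larvae, collected 1 day after the moult, were 4 pools of 10, and the adults, collected 1 day after eclosion, were 4 pools of 10, of which 2 held males and 2 held females. Adults had sugar and vitamin solution, no group carried a mutation or a drug treatment, and the sex of the larvae was not given. Pools numbered alike in different stages were not stated to share parents, and nothing was stated on whether the pools of a stage came from separate cultures, so the p-values measure only the spread between these pools.

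Lipases cut fatty acids from acylglycerols. In caterpillars the secreted enzymes of the pancreatic lipase family, among them the neutral lipases, act on dietary fat in the midgut, while acid lipases are the relatives of the lysosomal and gastric lipases of vertebrates. Inside cells, adipose triglyceride lipase, called brummer in *Drosophila*, and hormone-sensitive lipase release the fat stored in droplets of the fat body, and monoacylglycerol lipase cleaves the last fatty acid from the glycerol.

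By description, 42 members were neutral lipases, 39 were pancreatic lipases or proteins related to them, 29 were acid lipases, lipase 1 or lipase 3, 6 were insect intestinal lipases, 5 were lipase member H or I, 3 were hormone-sensitive lipases, 3 were adipose triglyceride lipases, 1 was a monoacylglycerol lipase, 1 was a lipoprotein lipase, 3 matched proteins from outside the insects, and 13 had other descriptions such as inactive lipase. The deposited domain annotation matched most of these names. A domain of the Lipase family of Pfam, the pancreatic lipase fold, was listed for 87 members, the Abhydro_lipase domain of acid lipases for 18, another hydrolase domain alone for 6, the amino-terminal domain of hormone-sensitive lipase for 3, a patatin domain for 2 and a GDSL lipase domain for 1. No domain was listed for 26 members and only domains not named here for 2. The Lipase domain was listed for 34 of the 39 pancreatic and 34 of the 42 neutral lipases, in some beside further domains. Of the 94 contigs of the whole table with a Lipase domain, 87 were members. The closest named species was *Bombyx mori* for 52 members, *H. armigera* itself for 45, *Danaus plexippus* for 23 and *Mamestra configurata* for 12.

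The values are FPKM, mapped fragments scaled by contig length and library size, which allow levels to be compared between contigs of unequal length. They summed to between 1074573 and 1509632 per library in larvae and between 447094 and 688947 in adults. Read counts were not analysed here. From the value that 1 read gave to the same lowly expressed contigs, the larval libraries had between 0.614 and 1.09 times the depth of the first 1st instar library, and the adult libraries between 1.095 and 2.04 times, so the adult values below rest on libraries that were at least as deep. Ribosomal protein contigs took 29.0 to 31.5% of the summed FPKM of 1st instar larvae, 11.5 to 18.0% of that of 5th instar larvae and 7.92 to 25.2% of that of adults. Egg and yolk proteins summed to 11951 FPKM in female replicate 3 and 1100 FPKM in female replicate 4, while 5th instar replicate 2 and 1st instar replicate 2 stood apart in several lipase contigs, given below. In whole bodies, fewer cells of a type and less RNA per cell cannot be told apart.

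Lipase RNA was abundant in both larval stages and low in adults. The members summed to 13721, 12900, 12881 and 14085 FPKM in the 4 libraries of 1st instar larvae and to 15945, 13494, 16882 and 10639 FPKM in the 4 of 5th instar larvae. In adults they summed to 865.7 and 851.6 FPKM in males and to 224.1 and 198.6 FPKM in females. Every larval library thus lay more than 10 times above every adult library. As a share of each library's summed FPKM, lipases took 0.933 to 0.972% at the 1st instar, 0.990 to 1.21% at the 5th instar, 0.133 and 0.124% in males, and 0.0413 and 0.0444% in females. Contigs of gut digestive enzymes (trypsins, chymotrypsins, carboxypeptidases, aminopeptidases and carbohydrases) also took less in adults than in larvae. Their share of the summed FPKM was 7.81 to 8.55% at the 1st instar and 5.04 to 10.7% at the 5th. It was 0.441 and 0.380% in males and 0.457 and 0.353% in females, so unlike the lipase share it overlapped between the sexes. The larval shares did not move together: 5th instar replicate 2 had the lowest gut enzyme share, 5.04%, and the highest lipase share, 1.21%. The part of the gut tissue in the lipase levels was not tested. In males, 53.2 and 47.96% of the sums came from 1 contig, c51948_g1_i1, whose name is doubtful (below), and without this contig and a second doubtful one the male sums were 386.7 and 420.6 FPKM.

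**Figure D1:**
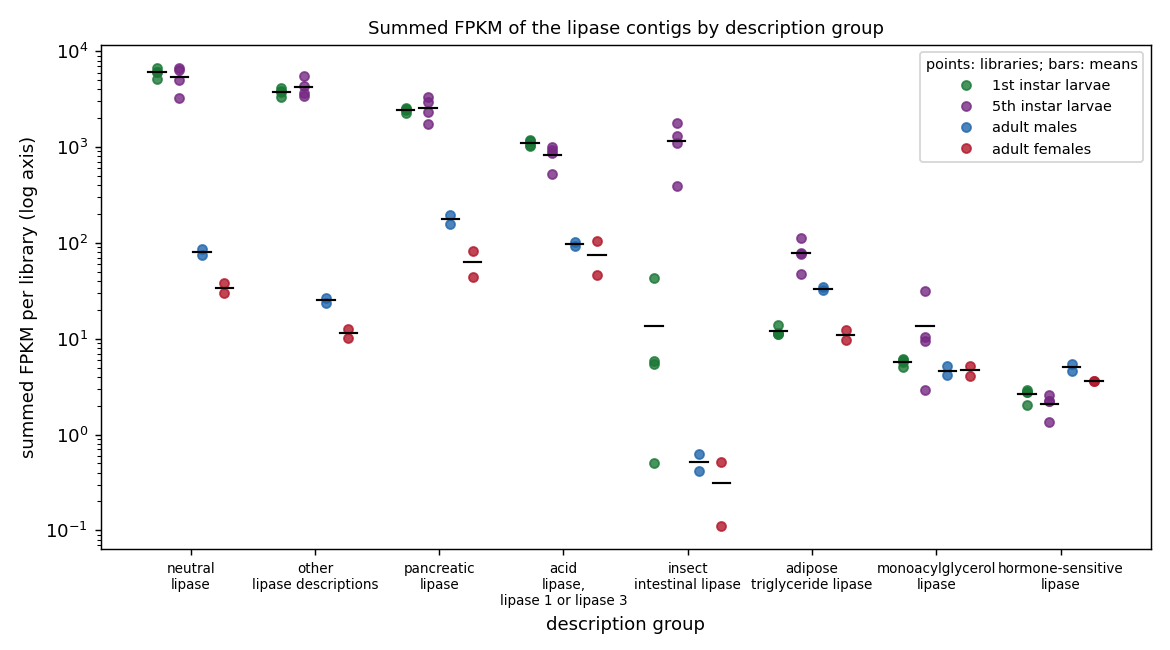
Summed FPKM of the lipase contigs per library on a log axis, by description group, with 1 point per library and a bar at the mean of each group of libraries. Lipase member H or I, lipoprotein lipase and the matches outside the insects are not drawn. The last of these sums to 460.8 and 408.5 FPKM in males. Neutral lipases and the other descriptions, which include the inactive lipases, hold the most in both larval stages, insect intestinal lipases are high in 5th instar larvae, where they sum to between 392.2 and 1769 FPKM, and hormone-sensitive lipase sums to between 1.33 and 2.89 FPKM in larvae and between 3.60 and 5.42 FPKM in adults.

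The test was limma on log2(FPKM + 1) with Benjamini-Hochberg adjustment over all 27678 contigs with a mean of at least 1 FPKM, a change being called at an adjusted p below 0.05. Of the members, 94 reached that mean and 51 did not. The highest single value among those 51 was 4.18 FPKM, and all 5 contigs of lipase member H or I and the lipoprotein lipase were among them. By stage mean, 34 of the 145 members were highest in 1st instar larvae, 64 in 5th instar larvae and 47 in adults, but of the 94 tested only 15 were highest in adults.

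Between the larval stages, 34 of 94 members were higher in 5th than in 1st instar larvae, 16 were lower and 44 were not called. Over all contigs tested, 18.4% were higher and 21.7% lower. The median log2 change of the members was 0.53, against 0.01 for all contigs. By group, 19 of 36 neutral lipases, all 6 insect intestinal lipases, all 3 contigs named adipose triglyceride lipase, 3 of 16 pancreatic and 2 of 19 acid lipases were higher in 5th instar larvae, while 3 neutral, 6 pancreatic, 4 acid and 3 of 10 other lipases were lower. For 1 of the adipose triglyceride lipases, c50064_g1_i1, the call depended on the setting (its values are given with that group). With the contigs of a unigene summed, 21 unigenes were higher. Of all 19782 unigenes tested in that setting, 7851 were called, counting both directions. The share that was higher is not given here, so the 21 cannot be set against it.

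Comparing adults with 5th instar larvae, 7 of 94 members were higher, 58 lower and 29 not called. Over all contigs 7.31% were higher and 19.7% lower. The median log2 change was -3.06 for the members and -0.19 for all contigs. The lower members included 26 of 36 neutral, 10 of 16 pancreatic, 7 of 19 acid and all 6 insect intestinal lipases, and 7 of the 10 others. Comparing adults with 1st instar larvae, 8 members were higher, 50 lower and 36 not called, against 14.1% and 31.6% of all contigs, with a median of -1.88 against -0.12. Both comparisons use the same 4 adult libraries. The calls of higher members in adults depended on the scaling of the libraries: when all libraries were scaled to the same summed FPKM, the median of all contigs moved from -0.19 to 0.61 against 5th instar larvae, and 24 members were then higher and 55 lower. Against 1st instar larvae the same scaling gave 31 higher and 46 lower. Over all 29623 contigs tested after this scaling, 11783 were called against 5th instar larvae and 14966 against 1st instar larvae, counting both directions. In the fit without scaling, 7482 and 12657 of 27678 were called. The shares by direction after scaling are not given here, so the member counts cannot be set against them. Without male replicate 1, 2 members were higher in adults against 5th instar larvae, and without male replicate 2 or 5th instar replicate 4, 3 were.

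**Figure D2:**
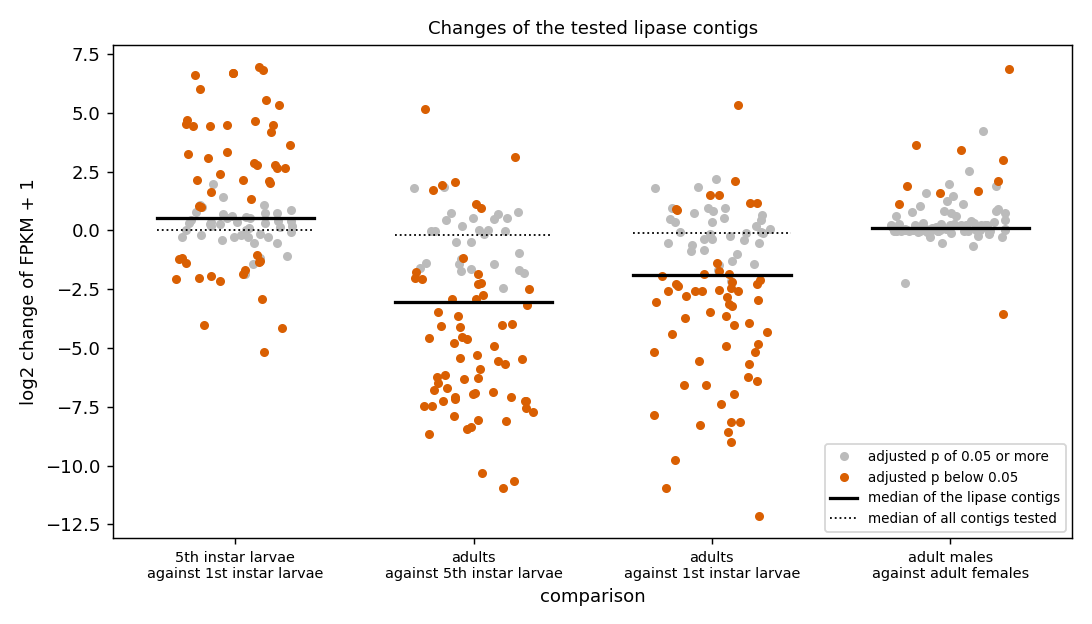
Log2 change of FPKM + 1 of the 94 tested lipase contigs in each comparison, coloured by whether the adjusted p was below 0.05, with solid lines at the members' median and dotted lines at the median of all contigs tested. The points of adults against either larval stage reach far below 0, with medians of -3.06 and -1.88, and those of males against females lie near 0.

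The most abundant larval lipase was c55249_g1_i1, a neutral lipase with a Lipase domain. It measured 5628, 5389, 4609 and 6255 FPKM in 1st instar larvae, 3268, 2035, 3329 and 1383 FPKM in the 5th instar, 0.060 and 0.124 FPKM in males, and 0.195 and 0.466 FPKM in females. No stage overlapped another. In 1st instar larvae this single contig held 35.8 to 44.4% of all lipase FPKM and ranked between 43 and 64 among all contigs. It was lower in 5th instar larvae by a log2 change of -1.21 ± 0.28 (SE; limma adjusted p = 0.00576; two-sided exact permutation p = 0.0286, the smallest that 4 against 4 allows), a call lost after quantile normalization (adjusted p = 0.174) and with a pseudocount of 0.01 (adjusted p = 0.0765). From 5th instar larvae to adults the log2 change was -10.94 ± 0.28 (limma adjusted p = 1.44e-10).

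Also abundant in larvae were 2 contigs described as inactive lipase, proteins of the same fold whose name denotes loss of catalytic residues. c54361_g1_i1 measured 2430.2, 1975, 2691 and 2275 FPKM in 1st instar larvae, 1369, 2412, 1688 and 2274 FPKM in 5th instar larvae, and between 0.117 and 0.214 FPKM in the adult libraries. The larval stages overlapped for this contig. c56977_g1_i1 measured 637.7, 522.6, 691.5 and 637.6 FPKM in 1st instar larvae and 3770.4, 648.6, 2282 and 1006 FPKM in 5th instar larvae, with at most 0.365 FPKM in an adult library. Its 5th instar libraries ranged widely, 1 of them lay within the 1st instar range, and its call as higher in 5th instar larvae (log2 change 1.31 ± 0.45, limma adjusted p = 0.03498) was lost without any of the 1st instar libraries and without 5th instar replicate 1 or 3 (limma adjusted p from 0.0621 to 0.0956). Together both contigs summed to 2498 to 3383 FPKM in 1st instar larvae and 3061 to 5140 FPKM in 5th instar larvae.

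Several digestive type contigs were high in both larval stages. The acid lipase c66129_g1_i1 fell from 954.6, 863.6, 833.1 and 973.6 FPKM in 1st instar larvae to 545.6, 306.5, 393.6 and 287.4 FPKM in 5th instar larvae, and no adult library was above 0.110 FPKM. The call between the larval stages was lost with a pseudocount of 0.01 (limma adjusted p = 0.139). The pancreatic lipase 2 contigs of unigene c58525_g1 summed to between 803 and 914.3 FPKM in 1st instar larvae and between 593.9 and 942.6 FPKM in 5th instar larvae. Of its contigs, c58525_g1_i1 was lower in 5th instar larvae, with means of 545.6 and 150.1 FPKM, a call lost with a pseudocount of 0.1 or 0.01 (limma adjusted p = 0.098 and 0.206), while c58525_g1_i2 had means of 333.8 and 544.7 FPKM and was not called (limma adjusted p = 0.504). How reads were divided between such near-identical contigs was estimated by the authors' software, so the values of single contigs within a unigene are uncertain. A further pancreatic lipase 2, c58525_g2_i1, measured 745.6 to 815.9 FPKM in 1st and 628.2 to 1407 FPKM in 5th instar larvae (limma adjusted p = 0.897), and c55339_g1_i1 measured 308 to 406.5 FPKM and 57.6 to 372.7 FPKM.

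Another set was found mainly in 1st instar larvae. The pancreatic triacylglycerol lipase c57521_g1_i1 measured 22.2, 33.8, 40.2 and 50.0 FPKM there and was listed at 0 in all 8 other libraries (limma adjusted p = 1.66e-08). Its partner c57521_g1_i2 kept 2.62 to 14.1 FPKM in 5th instar larvae, against 38.6 to 65.4 FPKM in 1st instar larvae. The neutral lipase c32662_g1_i1 measured 102.3, 159.9, 95.3 and 142.9 FPKM in 1st instar larvae and 1.74, 7.72, 18.1 and 6.37 FPKM in 5th instar larvae, and was listed at 0 in adults. Its log2 change was -4.02 ± 0.46 (limma adjusted p = 4.89e-05). The partial lipase c53409_g1_i1 had 171.9 to 315.1 FPKM in 1st instar larvae and 5.94, 32.4, 8.93 and 7.48 FPKM in 5th instar larvae, and the neutral lipase c51381_g1_i1 had 3.55 to 7.69 FPKM in 1st instar larvae and 2.92 FPKM in 5th instar replicate 2, with 0 in the other 5th instar libraries.

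The insect intestinal lipases, so named from the midgut of the related moth *Mamestra configurata*, were high in 5th instar larvae. c43175_g1_i1, an insect intestinal lipase 6, measured 434.2, 141.4, 721.2 and 486.2 FPKM in 5th instar larvae and 1.57, 19.4, 2.66 and 0 FPKM in 1st instar larvae, while no adult library exceeded 0.321 FPKM. The highest 1st instar value, in replicate 2, was still below every 5th instar value. The contigs c43175_g2_i1 and c43175_g3_i1, with the same description, showed the same order, at 98.8 to 532.5 and 120.4 to 495.6 FPKM in 5th instar larvae and at most 8.79 and 8.75 FPKM in 1st instar larvae, again in replicate 2. The log2 changes of these contigs between the larval stages lay between 6.61 and 6.80, with the highest limma adjusted p at 4.90e-05. Of the other intestinal lipases, c81000_g1_i1 reached 56.2 FPKM in 5th instar replicate 4 but at most 1.86 FPKM elsewhere.

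The neutral lipase unigene c58495_g1 was assembled as 12 contigs. Summed, it measured 61.9, 142.7, 119.3 and 73.3 FPKM in 1st instar larvae, 773.1, 2651, 2216 and 1479 FPKM in 5th instar larvae, and at most 0.290 FPKM in an adult library. The stages did not overlap. Its contig c58495_g1_i7 rose from 0.111, 2.03, 0.132 and 0.143 FPKM to 60.4, 228.8, 252.9 and 276.2 FPKM (log2 change 6.94 ± 0.47, limma adjusted p = 9.26e-07), and c58495_g1_i5 did so from at most 1.88 FPKM to between 52.6 and 242.5 FPKM. The 12 contigs cannot be separated reliably, and 10 of them were among the 19 neutral lipases that were higher. A pancreatic triacylglycerol lipase, c55997_g1_i1, was uneven in 5th instar larvae, at 17.7, 461.6, 519.5 and 19.7 FPKM, against 0.336 to 0.651 FPKM in 1st instar larvae. A pancreatic lipase 2, c34323_g1_i1, measured 63.6 to 151.5 FPKM in 5th and 4.26 to 6.32 FPKM in 1st instar larvae.

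**Figure D3:**
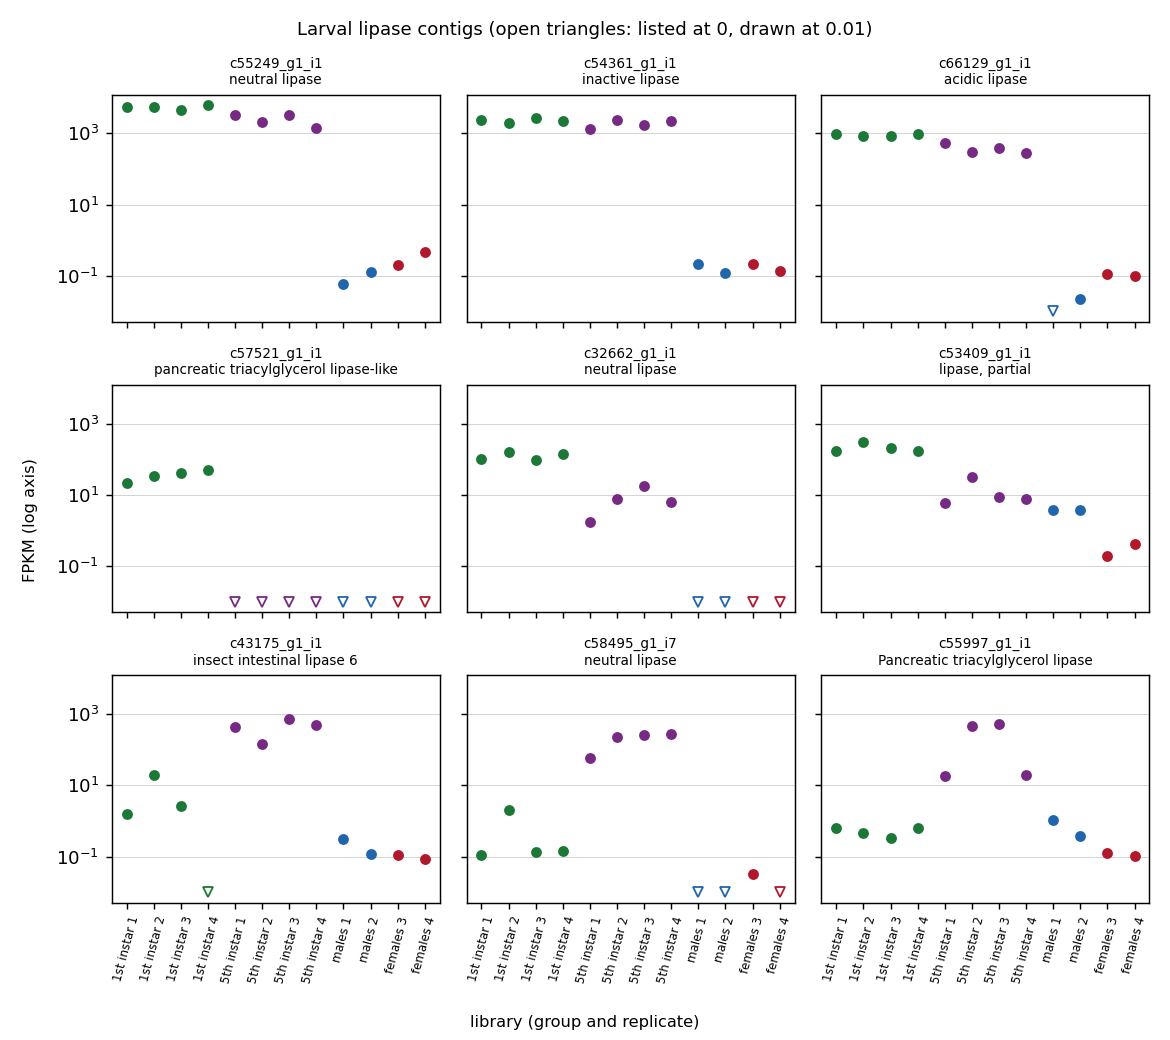
FPKM of 9 larval lipase contigs in each of the 12 libraries on a log axis, coloured by group, with open triangles for libraries listed at 0. The top row is high in both larval stages, the middle row is highest in 1st instar larvae and the bottom row in 5th instar larvae, where c43175_g1_i1 runs from 141.4 to 721.2 FPKM.

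Within 1st instar larvae, replicate 2 was the highest library for 21 of the 34 members that were higher in 5th instar larvae. Over all contigs higher in 5th instar larvae and detected in 1st instar larvae, replicate 2 was the highest for 29.5%. Several of the 21 belong to the same unigene. Arylphorin is a storage protein that the fat body makes in large amounts late in larval life. Its contig c45698_g1_i1 measured 0.546 FPKM in replicate 2 against 0 to 1.32 FPKM in the other 1st instar libraries, and 9210 to 46766 FPKM in 5th instar larvae. The whole list of fat body and haemolymph proteins, which holds this contig, was highest in replicate 2 within the 1st instar. It summed to 1393 FPKM there and to 1005, 1141 and 1124 FPKM in replicates 1, 3 and 4. The cause of the higher lipase values of replicate 2 was not tested. Without replicate 2, 30 members were higher in 5th instar larvae. In 5th instar larvae, replicate 2 held more of a set of acid lipases, chosen here after their values were seen. The contigs of unigene c60434_g1 summed to 54.2 FPKM in replicate 2 and at most 1.72 FPKM in the other 5th instar libraries, those of c53579_g1 to 79.3 FPKM against at most 9.53 FPKM, and those of c55470_g1 to 84.6 FPKM against at most 20.7 FPKM.

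The lipases of stored fat were far less abundant. The 2 contigs of adipose triglyceride lipase with a patatin domain, the domain of brummer, were at similar levels. c61393_g2_i1 measured 7.21, 5.498, 5.78 and 5.75 FPKM in 1st instar larvae, 25.0, 39.0, 30.7 and 23.8 FPKM in the 5th instar, 7.48 and 6.40 FPKM in males, and 5.34 and 6.33 FPKM in females. All 5th instar libraries lay above all others. The log2 change was 2.10 ± 0.20 from 1st to 5th instar larvae (limma adjusted p = 1.50e-05) and -2.03 ± 0.20 from 5th instar larvae to adults (limma adjusted p = 1.32e-05), and adults and 1st instar larvae were not told apart (0.06 ± 0.20, limma adjusted p = 0.825). The fat body and haemolymph protein list was also highest in 5th instar larvae, with a sum of 44841 to 146892 FPKM, against 1005 to 1393 FPKM at the 1st instar and 4315 to 9018 FPKM in adults, and its part in the lipase result was not tested.

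A further contig named adipose triglyceride lipase brummer, c50064_g1_i1, has no patatin domain. Its domain annotation lists leucine-rich repeats and its other database matches name a centrosomal protein, so the name lipase is doubtful. It measured 0.114, 39.0, 19.2 and 33.3 FPKM in the 5th instar, 18.2 and 22.6 FPKM in males, and at most 0.156 FPKM in females and 1st instar larvae. Its call as higher in 5th instar larvae (log2 change 3.63 ± 1.24, limma adjusted p = 0.0365) was lost with no filter (0.0657), with libraries scaled to the same sum (0.0644), with the replicate block (0.0573), and without any one of the 1st instar libraries or 5th instar replicates 2, 3 and 4 (limma adjusted p from 0.0725 to 0.0921).

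Hormone-sensitive lipase was assembled as 3 contigs of unigene c65540_g1, all with its own amino-terminal domain. They summed to 2.03 to 2.89 FPKM in 1st instar larvae, 1.33 to 2.57 FPKM in the 5th instar, 5.42 and 4.59 FPKM in males, and 3.61 and 3.60 FPKM in females. All adult libraries lay above all larval libraries, but for c65540_g1_i1 the change from 5th instar larvae to adults, 0.52 ± 0.20 on the log2(FPKM + 1) scale, was not called (limma adjusted p = 0.0727; exact permutation p = 0.0286), and the same held against 1st instar larvae (0.43 ± 0.20, limma adjusted p = 0.0917). The contig c59865_g3_i1 was described as monoacylglycerol lipase ABHD12-like, and its part in the release of stored fat was not tested. It measured 5.06 to 6.14 FPKM at the 1st instar, 2.90, 31.4, 9.51 and 10.5 FPKM at the 5th and 4.12 to 5.24 FPKM in adults, with no call. The lipoprotein lipase c39668_g1_i1, of the family that unloads fat from lipoproteins in vertebrates, was at most 1.02 FPKM in any library, and c94677_g1_i1, which matched the mouse lipoprotein lipase, was above 0 in only 2 libraries, both of 1st instar larvae, at 0.384 and 0.480 FPKM.

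Few lipases were abundant in adults. Only 2 members exceeded 10 FPKM in every adult library, c60381_g1_i1 and c60292_g1_i1. c60381_g1_i1, a pancreatic lipase-related protein, measured 47.9 and 80.0 FPKM in males and 15.8 and 49.9 FPKM in females, against 105.1, 259.3, 155.6 and 132.9 FPKM in 5th and 21.2 to 28.1 FPKM in 1st instar larvae. Adults lay below 5th instar larvae (log2 change -1.85 ± 0.43, limma adjusted p = 0.00736), a call lost after scaling the libraries to the same sum (adjusted p = 0.178) and after quantile normalization (adjusted p = 0.221). c60292_g1_i1, a precursor of lipase 3, measured 58.8 and 48.3 FPKM in males, 37.1 and 17.5 FPKM in females, 12.96, 37.8, 42.7 and 97.5 FPKM in 5th instar larvae, and 6.61 to 8.82 FPKM in 1st instar larvae. It was higher in adults than in 1st instar larvae (2.08 ± 0.52, limma adjusted p = 0.00637) and overlapped with 5th instar larvae.

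The neutral lipase c59527_g1_i1 measured 40.5 and 50.3 FPKM in males and 9.39 and 21.6 FPKM in females. It had 32.6 to 147.4 FPKM in 5th and 10.5 to 19.4 FPKM in 1st instar larvae, and the adult libraries overlapped with both larval stages. The lipase 1 contig c62546_g1_i1 was lowest in 5th instar larvae, at 0.094 to 0.572 FPKM, with 4.51 to 5.70 FPKM in 1st instar larvae, 12.9 and 8.36 FPKM in males, and 14.0 and 7.18 FPKM in females. Its stages did not overlap, and adults were higher than 5th instar larvae by 3.10 ± 0.24 (limma adjusted p = 1.17e-06). Another contig called higher in adults against the 5th instar was c65988_g1_i2, described as a triglyceride lipase. It measured 1.07 to 7.14 FPKM in adults and at most 0.533 FPKM in 5th instar larvae. No domain was listed for it. Its partner c65988_g1_i1 has the same description, lists DDHD and WWE domains and matches SEC23-interacting protein. Whether either contig encodes a lipase was not tested. The inactive pancreatic lipase-related contigs c7090_g1_i1 and c7090_g1_i2 measured 8.16 to 18.1 and 7.97 to 17.9 FPKM in adults and 4.14 to 8.73 and 3.15 to 8.05 FPKM in 5th instar larvae, and the call of the second as higher in adults was lost with each of 8 libraries left out.

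Males and females differed in few lipases. Of 94 members, 9 were higher in males, 1 was higher in females and 84 were not called, against 6.82% and 5.56% of all contigs. The medians were 0.10 and 0.09. With 2 libraries of each sex an exact permutation test cannot go below p = 0.333, and the limma test takes its spread from the larval libraries too. Of the 16 pancreatic lipases tested, 6 were higher in males and none in females, and none of the acid lipases but c85831_g1_i1 and c55470_g1_i2 was called.

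The pancreatic lipase-related protein c55788_g1_i1 measured 18.0 and 20.1 FPKM in males and 1.27 and 1.88 FPKM in females, with 0.317 to 3.44 FPKM in larvae. Both male libraries lay above all others, and the log2 change between the sexes was 2.97 ± 0.29 (limma adjusted p = 4.23e-05). The acid lipase c85831_g1_i1 measured 11.5 and 11.3 FPKM in males and at most 0.025 FPKM in any other library (3.63 ± 0.18, limma adjusted p = 1.64e-07). Of the other 10 libraries, 5 listed it at 0. The pancreatic lipase 2 contig c58525_g1_i2, which was abundant in larvae, kept 10.8 and 9.98 FPKM in males and 0.091 and 0.022 FPKM in females (3.43 ± 0.27, limma adjusted p = 5.49e-06). c58525_g2_i1 kept 2.75 and 3.93 FPKM in males and was listed at 0 in both female libraries, and c58525_g1_i1 kept 2.71 and 2.13 FPKM in males and at most 0.091 FPKM in females. c34323_g1_i1, another pancreatic lipase 2, kept 2.99 and 2.67 FPKM in males and at most 0.058 FPKM in females, a call lost without male replicate 1 (limma adjusted p = 0.0673). The gut digestive enzyme list, 28 of whose 232 tested contigs were higher in males and 8 in females, summed to 2619 to 2865 FPKM in males and 1579 to 2478 FPKM in females, and its part in the sex difference was not tested.

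The largest difference between the sexes on the log2(FPKM + 1) scale was in c51948_g1_i1, at 460.8 and 408.5 FPKM in males, 11.699 and 0.095 FPKM in females and at most 0.322 FPKM in larvae (log2 change 6.87 ± 0.81, limma adjusted p = 0.000189). The call was lost when the fit held the adult libraries alone (limma adjusted p = 0.13). Its only link to lipases is a match to a putative lipase of the malaria parasite *Plasmodium falciparum*. No domain was listed for it, and its other match is an uncharacterized protein of the slime mould *Dictyostelium*. It is counted among the members by the rule alone. The acid lipase contig c55470_g1_i2 was the member higher in females, at 34.0 and 3.45 FPKM against 0 and 0.093 FPKM in males (limma adjusted p = 0.00628). This call was lost when the fit held the adult libraries alone (limma adjusted p = 0.256) and without male replicate 1 (limma adjusted p = 0.0554). Without female replicate 3, the library rich in egg proteins, the contig fell below the mean of 1 FPKM and was not tested. Among all 145 members, 16 were above 0 in both male libraries and at 0 in both female libraries, and 4 the reverse. Only 8 of the 16 and 2 of the 4 reached the mean for testing. Of all contigs, 57155 and 60232 were above 0 in the male libraries and 49756 and 57623 in the female libraries. The same counts over all contigs are not given here, so no sex difference is read from them.

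**Figure D4:**
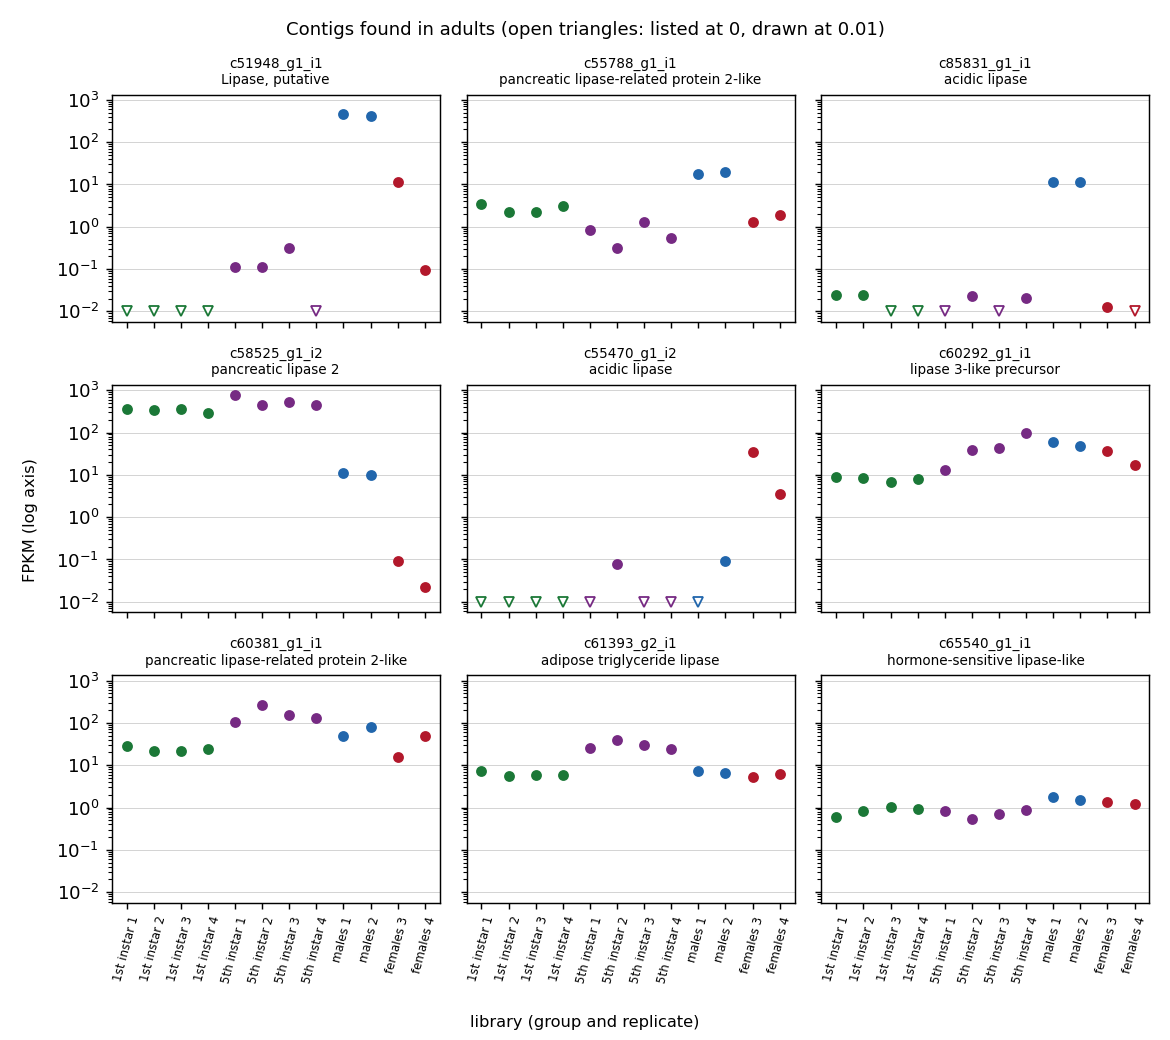
FPKM of 9 contigs present in adults in each of the 12 libraries on a log axis, coloured by group, with open triangles for libraries listed at 0. c51948_g1_i1, c55788_g1_i1, c85831_g1_i1 and c58525_g1_i2 are higher in both male than in both female libraries, c55470_g1_i2 is higher in both female libraries, and c61393_g2_i1 peaks in 5th instar larvae at 23.8 to 39.0 FPKM.

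**Figure D5:**
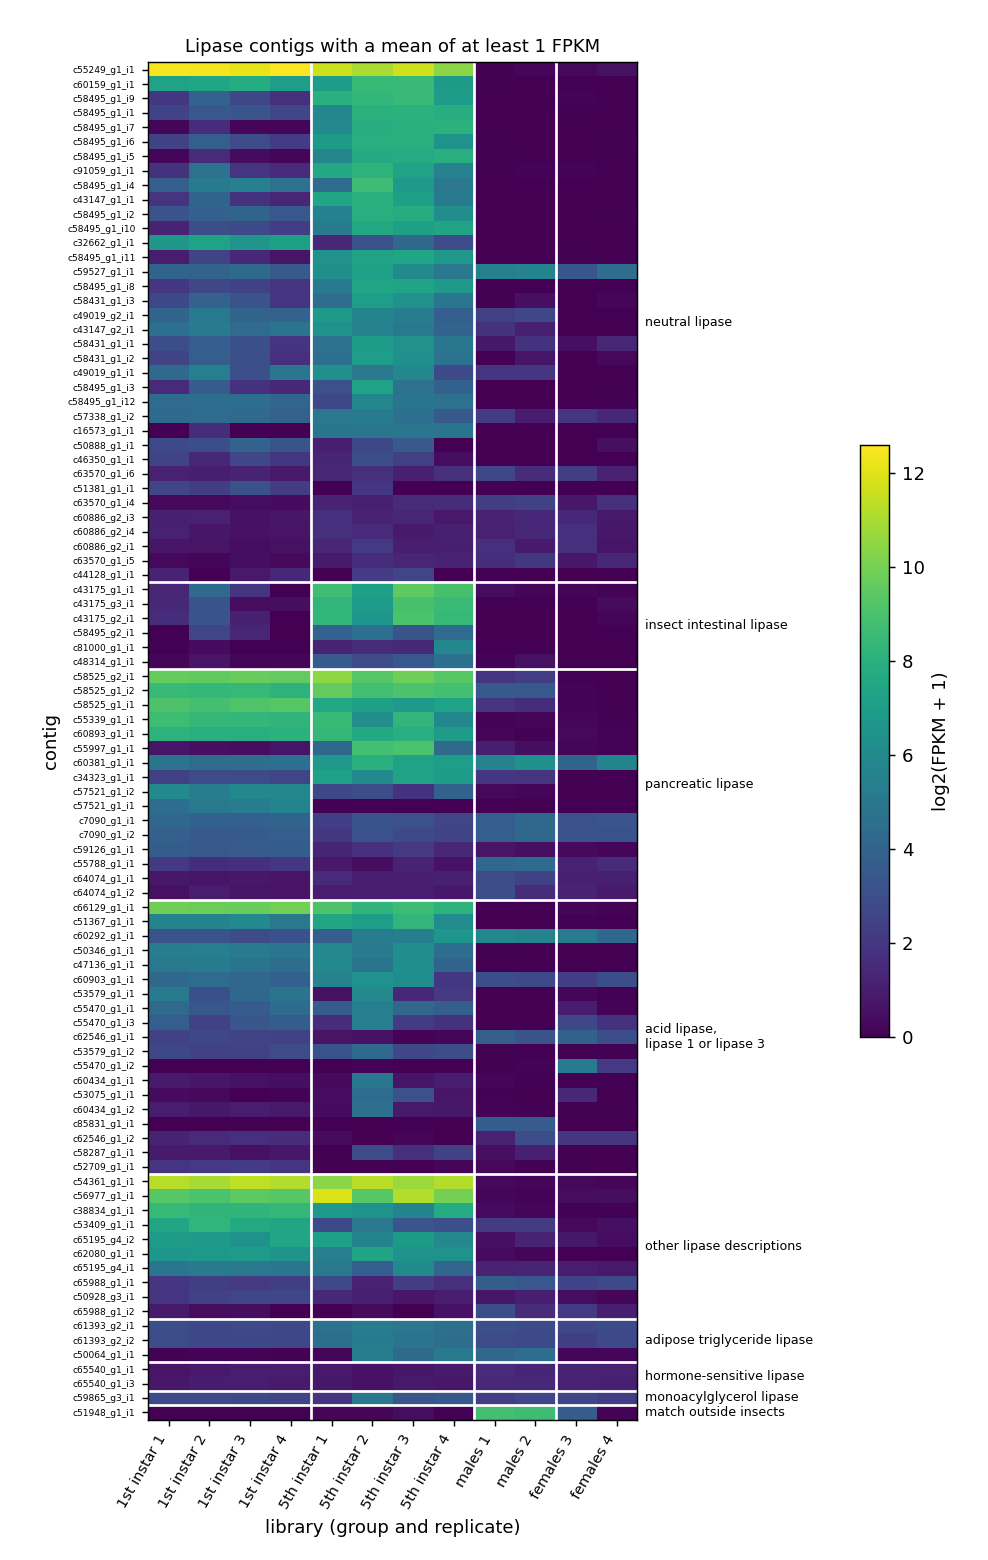
Log2(FPKM + 1) of the 94 tested lipase contigs (rows, by description group and falling mean) in the 12 libraries (columns). Most rows are dark in the 4 adult columns, where only 2 members exceed 10 FPKM throughout, and the block of neutral and intestinal lipases is brighter in 5th than in 1st instar larvae.

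Other genes of lipid metabolism were described in the same fits. Carboxylesterases, hydrolases of the same superfamily, were mostly lower in adults: 92 of 121 tested contigs were lower than in 5th instar larvae and 2 higher, with a median log2 change of -2.80. Over all contigs tested, 19.7% were lower and 7.31% higher in that comparison, with a median of -0.19. The enzymes of fatty acid oxidation were lower for 23 of 60 and higher for 3, with a median of -0.98. Their share of the summed FPKM was not lower throughout. Males had 0.311 and 0.311%, females 0.358 and 0.297%, and the 5th instar libraries 0.245, 0.394, 0.225 and 0.221%. Calls of this list after scaling the libraries are not given here. The enoyl-CoA hydratase c57613_g1_i2 fell more than the list median, with a log2 change of -3.16. Its level went from 397.1 ± 154.7 to 41.2 ± 4.71 FPKM (SD, n = 4 each; limma adjusted p = 2e-06). Phospholipases, left out of the members, differed in that 8 of 22 were higher and 1 was lower in this comparison, with a median of 0.54. Glycerolipid and fatty acid synthesis gave 5 higher and 2 lower of 23, and its fatty acid synthase c57392_g1_i1 was higher in adults, at 176.1 ± 106.2 against 15.9 ± 13.1 FPKM (SD, n = 4 each; limma adjusted p = 0.00968). Lipid transport gave 7 higher and 11 lower of 50, the latter near the share over all contigs, and apolipophorin III, c75683_g1_i1, a carrier of fat in the haemolymph, rose from 1007 ± 120.1 FPKM to 2372 ± 848.8 FPKM between the larval stages (limma adjusted p = 0.0158) and to 5968 ± 2513 FPKM in the adult stage (SD, n = 4 each; limma adjusted p = 0.0116). Of 5 tested contigs of the adipokinetic hormone pathway, which triggers the release of stored fat, none was higher and 2 were lower in the adults, and the adipokinetic hormone receptor c63196_g1_i2 went from 2.13 ± 0.44 to 23.9 ± 17.2 and 7.55 ± 3.12 FPKM over the 3 stages (SD, n = 4 each).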

How the data were processed

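The authors assembled reads of 12 poly(A) libraries with Trinity 2.0.6, mapped them with Bowtie 0.12.7, allowing 2 mismatches in the first 28 bases, and deposited FPKM values per contig estimated with RSEM 1.1.17, with database and domain annotation. These versions come from the submitters' processing notes and the study's methods, which speak of fewer libraries for the mapping than the table holds. All deposited columns of values were used. The depth per contig is not known, since the table holds no counts, and relative depth was read from low values.

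FPKM values were used as deposited, with a pseudocount of 1 and contigs with a mean of at least 1 FPKM kept. limma 3.58.1 (R 4.3.3) with trend was fitted to all 12 libraries, with 3 stages, or 4 groups for the sexes, and adjusted p-values run over the whole table. The fit was tested on simulated data. Python 3.11.15 with pandas 2.3.3 and scipy 1.17.1 did the rest. Pools sharing a replicate number did not deviate together (r from -0.16 to 0.08 over 12 pairs of the same number, -0.16 to 0.19 over 36 pairs of different numbers), so no block was used. Replicate numbers follow the sample titles. The column names number the female libraries differently, and the pairing under those numbers was not computed.

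The members, lists and tests were chosen with earlier results of these data known. Contigs are named where they are among the 8 most abundant members of a group, among the 6 largest called changes without overlap in a direction, or described as an intracellular or lipoprotein lipase. Other contigs given by value were chosen after their values were seen. Alternatives were other pseudocounts (0.1 and 0.01), filters (none, and a mean of 5), scalings, summed isoforms, spreads, fits to the groups compared, each library left out, and, added after seeing the data, only members with a lipase or hydrolase domain and only members matched to insects. No sequence is given, because the table holds none.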

Additional observations from a re-analysis of the deposited data

Results flagged for a closer look

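Of 84 groups of 4 larval libraries examined for the named contigs, 9 had a library far from the other libraries of its group. For normally distributed values chance flags about 1 in 20 groups, or 4.2 here. FPKM near 0 need not follow that rate. A group with 0 in all libraries but 1 is always flagged, as were c55470_g1_i2 and c51381_g1_i1 in 5th instar larvae. Contigs of 1 unigene share reads, so these are not 9 separate events.

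In 1st instar larvae, 4 of them were in replicate 2. c43175_g1_i1 stood at 19.4 FPKM there, with 0 to 2.66 FPKM in the other 3 libraries, and c43175_g3_i1 at 8.75 FPKM, with 0.348 to 1.65 FPKM. c58495_g1_i7 stood at 2.03 FPKM, with 0.111 to 0.143 FPKM in the others, and c58495_g1_i5 at 1.88 FPKM, with 0.143 to 0.276 FPKM. All 4 were far higher in 5th instar larvae. The adipose triglyceride lipase c61393_g2_i1 stood at 7.21 FPKM in replicate 1, with 5.498 to 5.78 FPKM in the others.

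In 5th instar larvae, 4 were in replicate 2. c53409_g1_i1 stood at 32.4 FPKM, with 5.94 to 8.93 FPKM in the others, and c51381_g1_i1 at 2.92 FPKM, with 0 in the others. c55470_g1_i2 stood at 0.079 FPKM, with 0 in the others, and c39668_g1_i1 at 0.441 FPKM, with 0 to 0.067 FPKM. The cause was not tested.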

How the results depend on the processing

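The counts of lower members were within 1.5 times of the main count under every alternative for the stage comparisons, and no named change reversed. Of 1852 recomputed values of 86 named changes, 1761 kept their direction and their side of the threshold and 91 lost the call. The number higher in 5th than in 1st instar larvae went from 34 to 21 with isoforms summed, where fewer features were tested. The number higher in adults against the 5th instar went from 7 to 24 with libraries scaled to the same sum, 13 after quantile normalization, 13 with 4 groups, 3 with only the groups compared and 3 with only members listing a lipase or hydrolase domain, and leaving out 1 library gave 2 to 10. Against 1st instar larvae it went from 8 to 31 with the same scaling, 13 after quantile normalization, 14 with 4 groups, 16 with no filter and 3 at a mean of 5 FPKM. The number higher in males went from 9 to 16 with a pseudocount of 0.01 and 17 with no filter. The number higher in females went from 1 to 2 with a pseudocount of 0.1, 4 with 0.01, 3 with no filter, 0 at a mean of 5 FPKM and 0 with only the groups compared, and leaving out 1 library gave 0 to 2. The calls over all contigs also changed with these scalings and filters, so the shifts are not read as a result about the members. The cause of these shifts was not tested. With the replicate number as a block (replicate block), 32 members were higher and 16 lower in 5th than in 1st instar larvae, 5 higher and 57 lower in adults against the 5th instar, and 7 higher and 50 lower in adults than in 1st instar larvae. No read counts were used, so small values near 0 carry an unknown counting error.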
